A study of Mus musculus with 6 samples.

Results

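The genes described here are 38 antiviral effectors that interferon is known to induce, outside the IFIT, OAS and GBP families. They are listed by name, and the list was drawn up with earlier results of these data known. Each was looked for in the gene column of the 6 expression tables, and all 38 were found among 23406 gene names. All 38 passed the filter on low values, 1 FPKM or more in 2 or more libraries, as did 12266 genes in all; 37 of the 38 had 1 FPKM or more in every library, and Epsti1 passed only through KO 2 and MUT. FPKM is sequenced fragments scaled to transcript length and library size, so levels given here are per length.

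The libraries are total RNA of mouse embryonic fibroblasts (MEF) at day 7 of reprogramming with OSKM (Oct4, Sox2, Klf4 and Myc), depleted of ribosomal RNA. KO cells carried a pair of floxed Adar1 alleles (Fl/Fl) and received 4OHT (n = 2), and WT cells carried the same alleles and received vehicle (n = 2). MUT cells carried Fl/E861A alleles and received 4OHT (n = 1), and HET cells carried the same alleles and received vehicle (n = 1). The gene is called Adar in the tables and encodes ADAR1. The E861A allele is known to abolish its editing activity, and MUT cells are left with it alone where the floxed allele is lost. 4OHT, 4-hydroxytamoxifen, is the usual inducer of Cre, which removes floxed sequence; the labels name neither the Cre driver nor how OSKM was delivered. Nothing in the labels tells if the replicates are separate cultures or embryos. The p-values therefore reflect the scatter of these libraries alone, and that scatter may be technical. No library with 4OHT and without floxed alleles was analysed here, so effects of 4OHT or Cre cannot be told apart from those of Adar.

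ADAR1 converts adenosine to inosine in double-stranded RNA. RNA that is left unedited can be bound by the sensor MDA5, which leads to interferon production. Interferon acts through its receptor, Janus kinases and transcription factors that bind a promoter element called ISRE and switch on many genes. The effectors among them block virus entry, replication, protein synthesis or release by many separate means, and fibroblasts make them at a low level even without infection.

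Promoter windows of 6 of these genes are shown because they cover members with large differences (Rsad2, Isg15 and Ifi44) and members that were not called in KO against WT (Slfn5, Lgals3bp and Pml). Each runs from 250 bases before to 50 bases after the start of transcription, 5′ to 3′ on the gene's strand, from RefSeq on GRCm38.p6. Capitals mark the core of the ISRE, searched as GAAA, any 2 bases and GAAA again, and the same pair spaced by any 3 bases, on either strand.
Rsad2, chr12:26456403-26456702, minus strand: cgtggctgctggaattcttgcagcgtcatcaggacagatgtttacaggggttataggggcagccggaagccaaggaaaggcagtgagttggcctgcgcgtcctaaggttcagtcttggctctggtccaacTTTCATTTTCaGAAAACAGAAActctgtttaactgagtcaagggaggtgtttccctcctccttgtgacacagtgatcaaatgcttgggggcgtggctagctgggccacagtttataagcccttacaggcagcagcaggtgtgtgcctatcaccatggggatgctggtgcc
Isg15, chr4:156200769-156201068, minus strand: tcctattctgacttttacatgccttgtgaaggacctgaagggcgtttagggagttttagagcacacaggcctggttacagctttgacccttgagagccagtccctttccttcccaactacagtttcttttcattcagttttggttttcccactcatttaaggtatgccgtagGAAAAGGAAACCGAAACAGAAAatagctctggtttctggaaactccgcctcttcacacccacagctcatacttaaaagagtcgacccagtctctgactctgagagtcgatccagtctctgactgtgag
Ifi44, chr3:151749861-151750160, minus strand: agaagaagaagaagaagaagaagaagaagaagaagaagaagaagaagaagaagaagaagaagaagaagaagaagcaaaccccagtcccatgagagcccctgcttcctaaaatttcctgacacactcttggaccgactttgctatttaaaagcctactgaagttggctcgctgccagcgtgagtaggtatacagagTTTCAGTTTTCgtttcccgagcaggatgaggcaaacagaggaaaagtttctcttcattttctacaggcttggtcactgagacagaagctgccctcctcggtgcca
Slfn5, chr11:82951852-82952151, plus strand: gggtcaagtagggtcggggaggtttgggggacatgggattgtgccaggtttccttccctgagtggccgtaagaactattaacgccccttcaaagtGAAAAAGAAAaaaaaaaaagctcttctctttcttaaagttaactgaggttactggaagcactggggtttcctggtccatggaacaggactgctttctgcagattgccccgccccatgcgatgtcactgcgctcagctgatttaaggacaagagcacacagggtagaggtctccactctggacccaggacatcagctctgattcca
Lgals3bp, chr11:118401910-118402209, minus strand: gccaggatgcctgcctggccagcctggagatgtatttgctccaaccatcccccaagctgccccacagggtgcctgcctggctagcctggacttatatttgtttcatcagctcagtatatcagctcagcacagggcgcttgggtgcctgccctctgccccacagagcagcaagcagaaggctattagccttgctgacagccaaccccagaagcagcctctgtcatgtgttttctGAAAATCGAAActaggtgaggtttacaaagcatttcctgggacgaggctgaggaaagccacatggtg
Pml, chr9:58249737-58250036, minus strand: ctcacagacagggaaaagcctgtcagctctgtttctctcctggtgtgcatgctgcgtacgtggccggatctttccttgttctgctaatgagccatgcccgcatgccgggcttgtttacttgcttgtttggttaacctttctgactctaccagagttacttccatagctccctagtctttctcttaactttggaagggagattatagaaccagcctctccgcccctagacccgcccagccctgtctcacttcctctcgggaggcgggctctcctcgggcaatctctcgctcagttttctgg

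The shown window of Isg15 holds 3 ISRE cores that overlap each other, and that of Rsad2 holds 1 core and 1 pair spaced by 3 bases. Ifi44 and Lgals3bp have 1 pair spaced by 3 bases each, Slfn5 has 1 ISRE core, and Pml has no match of either kind in this window. Of the 38 genes, 29 had RefSeq promoter windows; Mx1, Mx2, Parp9, Parp10, Parp14, Rtp4, Tor3a, Ifi27 and Ifi27l2a had no entry. The ISRE core was present in the windows of 10 of the 29, against 3.99% of all 27025 genes with a window. The pair spaced by 3 bases was present in 5 of the 29, against 3.17% of all genes. A match of either kind was present in 14 of the 29, against 6.9% of all genes. Of the 25 genes with a window that rose in KO, 9 had the ISRE core and 12 had a match of either kind. Of the 4 others with a window, 2 had a match of either kind. Cmpk2 and Herc6, which rose by 1.89 and 1.93 on the log2 scale, had no match, so the windows shown do not stand for all large rises. TTCNNNGAA, the gamma-activated sequence (GAS), was present in 4 of the 29, against 9.55% of all genes. Both strands were searched. In 2 windows of these genes a GAS match overlapped an ISRE core. A match is a description of the letters in this window and not a site of binding.

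The effectors rose in KO almost throughout. Of the 38 genes, 32 rose in KO against WT, 2 fell (Ifi27 and Ifi27l2a) and 4 were not called (Pml, Lgals3bp, Slfn5 and Epsti1), by limma's moderated test on log2(FPKM + 1) with Benjamini-Hochberg adjustment over all 12266 genes and a threshold of 0.05. Of the 36 rows that name 1 gene only, 30 rose; Parp10 and Tor3a are counted among the 32 by rows that each name a second gene. Over all genes tested the same test called 29.5% higher and 28.2% lower. The median difference was 1.04 on the log2 scale over the 38 genes and 0.02 over all genes tested. At least 2-fold rises were called for 21 of the 38, against 4.68% of all genes. Both KO libraries lay above both WT libraries in 34 of the 38 genes, against 40.9% of all genes. The 32 that rose are among the 34, and they were called on these same values, so their separation adds nothing to the calls. The share of 40.9% also stands beside each such separation named below. Because the added 1 shrinks the differences of genes with low FPKM, ratios of mean FPKM are given as well. These ratios of KO over WT ranged from 1.37 to 6.01 over the 32 genes, with a median of 2.3.

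**Figure D1:**
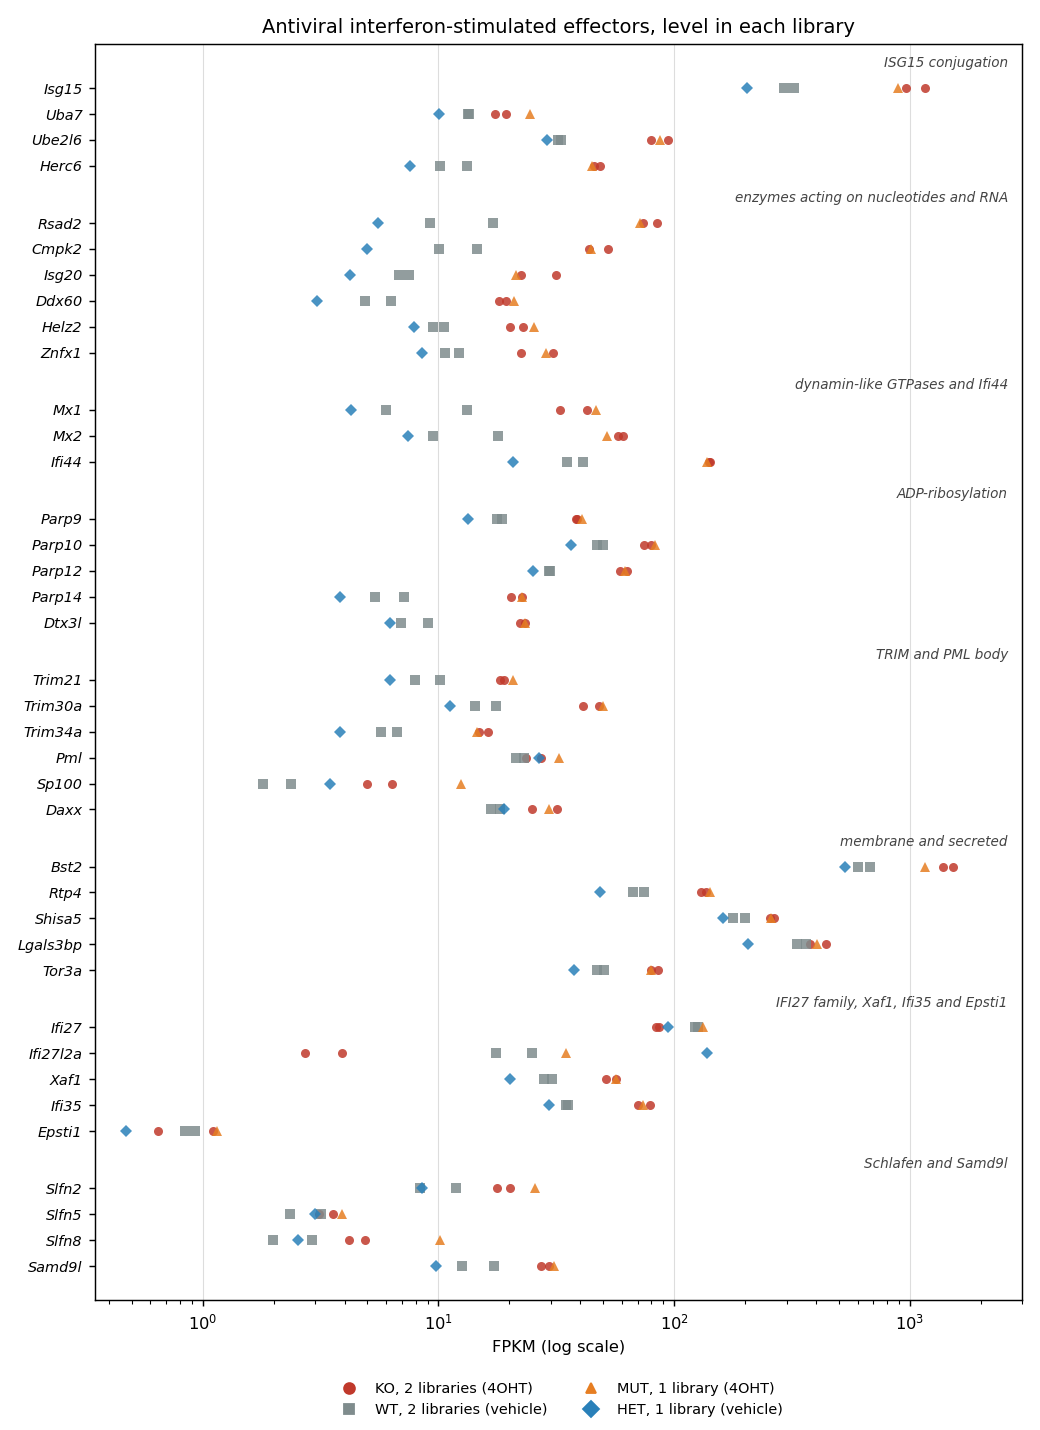
FPKM of the 38 genes in each of the 6 libraries on a log axis, grouped by what the gene products do. For the 32 genes that rose in KO, the KO libraries (circles) and MUT (triangle) lie to the right of the WT libraries (squares) and HET (diamond), while Ifi27l2a lies furthest right in HET, at 138 FPKM.

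The ISG15 conjugation genes rose together. ISG15 is a ubiquitin-like protein that is attached to other proteins by the E1 enzyme UBA7, the E2 enzyme UBE2L6 and, in mice, the E3 ligase HERC6. Isg15 stood at 962 and 1155 FPKM in the KO libraries, against 321 and 293 FPKM in the WT libraries, and at 886 FPKM in MUT, against 203 FPKM in HET. Herc6 stood at 48.3 and 45.9 FPKM in KO, against 10.2 and 13.2 FPKM in WT, and at 44.9 FPKM in MUT, against 7.58 FPKM in HET. Neither gene's KO and WT values overlapped. Herc6 had the largest difference between KO and WT of the 4 genes, 1.93 on the log2 scale (standard error 0.12; limma adjusted p = 5.13e-07). Ube2l6 had 94.4 and 80.1 FPKM in KO, against 32.9 and 32.2 FPKM in WT, and 87.0 FPKM in MUT, against 28.8 FPKM in HET. Uba7, the first enzyme of the chain, differed least: it had 19.4 and 17.3 FPKM in KO, against 13.4 and 13.5 FPKM in WT (log2 difference 0.42, SE 0.10, limma adjusted p = 0.00517). It had 24.4 FPKM in MUT, against 10.02 FPKM in HET. Along the chain the KO over WT ratio of FPKM was 3.45 for Isg15, 1.37 for Uba7, 2.68 for Ube2l6 and 4.02 for Herc6. Usp18, which is no member but encodes the protease that removes ISG15 and restrains the interferon receptor, stood at 185 and 196 FPKM in KO, against 43.7 and 51.8 FPKM in WT, and at 161 FPKM in MUT, against 26.3 FPKM in HET.

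All 6 enzymes that act on nucleotides and RNA rose in KO. Rsad2 encodes viperin, which turns CTP into a nucleotide that ends viral RNA chains, and had the largest rise of the 38 genes, on the log2 scale and as a ratio of FPKM. It stood at 84.4 and 73.5 FPKM in KO, against 9.18 and 17.1 FPKM in WT, and at 71.6 FPKM in MUT, against 5.56 FPKM in HET. The difference between KO and WT was 2.55 on the log2 scale (standard error 0.21; limma adjusted p = 3.33e-06). Cmpk2, a mitochondrial nucleotide kinase gene, lies 12752 bases from Rsad2 on chromosome 12 (GENCODE M21, GRCm38), on the opposite strand. Its values followed the same order of groups: 52.1 and 43.5 FPKM in KO, against 10.04 and 14.6 FPKM in WT, and 44.4 FPKM in MUT, against 4.98 FPKM in HET. Isg20 encodes a 3′ to 5′ exonuclease that degrades RNA, and had 31.6 and 22.5 FPKM in KO, against 6.77 and 7.48 FPKM in WT. In MUT it had 21.2 FPKM, against 4.22 FPKM in HET. KO and WT values did not overlap for any of the 6. The helicase family genes Ddx60, Znfx1 and Helz2 rose by 1.59, 1.14 and 1.03 on the log2 scale in KO, and differed by 2.44, 1.63 and 1.56 between MUT and HET.

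Mx1, Mx2 and Ifi44 rose as well. The Mx genes encode dynamin-like GTPases that trap viral nucleoproteins, in the nucleus for mouse Mx1 and in the cytoplasm for mouse Mx2; many inbred mouse strains are known to carry defective alleles, and the annotation lists Mx2 as a polymorphic pseudogene. Mx1 stood at 42.7 and 32.8 FPKM in KO, against 5.98 and 13.2 FPKM in WT, and at 46.7 FPKM in MUT, against 4.28 FPKM in HET. Mx2 stood at 60.8 and 58.0 FPKM in KO, against 9.52 and 17.9 FPKM in WT, and at 51.7 FPKM in MUT, against 7.43 FPKM in HET. The WT libraries lay far apart in both genes, yet below both KO libraries. The log2 difference between KO and WT was 1.95 for Mx1 (SE 0.26, limma adjusted p = 0.000106) and 2.1 for Mx2 (SE 0.21, limma adjusted p = 1.34e-05). Ifi44 had 141 and 141 FPKM in KO, against 35.0 and 40.9 FPKM in WT, and 138 FPKM in MUT, against 20.8 FPKM in HET.

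Of the ADP-ribosylation genes, all 4 with a row of their own rose. Parp14 and Parp12 encode enzymes that add single ADP-ribose units, and PARP9 forms a complex with the ubiquitin ligase DTX3L. Parp14 had 22.7 and 20.3 FPKM in KO, against 5.41 and 7.18 FPKM in WT, and 22.7 FPKM in MUT, against 3.81 FPKM in HET. Dtx3l had 23.3 and 22.2 FPKM in KO, against 6.97 and 9.04 FPKM in WT, and 23.2 FPKM in MUT, against 6.22 FPKM in HET. Parp9 had 38.4 and 38.8 FPKM in KO, against 17.8 and 18.5 FPKM in WT, and 40.6 FPKM in MUT, against 13.3 FPKM in HET. In all 3 the KO and MUT libraries lay above both WT libraries and HET. Parp9 and Dtx3l lie on chromosome 16 with exons that overlap by 458 bases on opposite strands, the tables give both rows the same coordinates, and the sources do not say whether strand was used, so reads from the shared bases cannot be told apart. Exons of Znfx1, Trim34a, Pml, Ifi35 and Slfn5 also overlap exons of other genes on the opposite strand, by 82 to 609 bases. The same limit holds for them. Parp12 rose by 1.01 on the log2 scale (limma adjusted p = 7.89e-06). Parp10 is listed only on a row shared with Plec, the gene of the cytoskeletal linker plectin; that row rose by 0.66, which cannot be assigned to either gene.

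Of the TRIM and PML body genes, 5 of 6 rose and Pml was not called. Trim21 encodes a ubiquitin ligase and cytosolic antibody receptor, and Trim30a and Trim34a belong to the same ligase family. Trim30a had 48.1 and 41.2 FPKM in KO, against 14.3 and 17.5 FPKM in WT, and 50.04 FPKM in MUT, against 11.2 FPKM in HET. Trim34a had 14.8 and 16.2 FPKM in KO, against 5.72 and 6.69 FPKM in WT, and 14.5 FPKM in MUT, against 3.81 FPKM in HET. Both belong to a cluster of close paralogs that can share reads, so the level of each alone is uncertain. Trim21 rose by 0.97 on the log2 scale in KO (limma adjusted p = 6.27e-05). PML is the scaffold of nuclear bodies that restrict DNA viruses, and SP100 and the histone chaperone DAXX are parts of the same bodies. Sp100 had 6.35 and 4.999 FPKM in KO, against 1.81 and 2.38 FPKM in WT (log2 difference 1.11, limma adjusted p = 7.67e-05), and 12.5 FPKM in MUT, against 3.45 FPKM in HET. Sp100 was higher in HET than in both WT libraries, as were 4 of the 38 genes with it included, against 41.8% of all genes. It was also higher in MUT than in both KO libraries, as were 19 of the 38, against 34.6% of all genes. Daxx rose by 0.66 (limma adjusted p = 0.00108). Pml had 27.3 and 23.5 FPKM in KO, against 23.1 and 21.4 FPKM in WT, a log2 difference of 0.18 (SE 0.11, limma adjusted p = 0.174), and 32.4 FPKM in MUT, against 26.8 FPKM in HET. HET lay between the KO libraries in this gene.

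Membrane and secreted products include the most abundant of these transcripts. Bst2 encodes tetherin, which holds budding virus particles on the cell surface. It had 1379 and 1523 FPKM in KO, against 676 and 604 FPKM in WT, and 1163 FPKM in MUT, against 531 FPKM in HET. It was the highest member in all 6 libraries, and its mean was 811 FPKM higher in KO than in WT. Rtp4, of the receptor transporter protein family, had 136 and 129 FPKM in KO, against 67.0 and 74.4 FPKM in WT, and 142 FPKM in MUT, against 48.4 FPKM in HET. Neither gene's groups overlapped. Tor3a, which encodes an ATPase of the endoplasmic reticulum, is listed only on a row shared with the kinase gene Fam20b. That row had 85.4 and 79.4 FPKM in KO, against 46.9 and 50.2 FPKM in WT, and 79.4 FPKM in MUT, against 37.7 FPKM in HET, and cannot be assigned to either gene. Shisa5, a membrane protein gene tied to cell death, rose by 0.46 (SE 0.10, limma adjusted p = 0.00283); without WT 2 the call was lost (limma adjusted p = 0.0543). Lgals3bp encodes a secreted glycoprotein that binds galectin-3 and stood at 441 and 376 FPKM in KO, against 364 and 332 FPKM in WT. The log2 difference was 0.23 (SE 0.11, limma adjusted p = 0.103), and without KO 2 it was 0.34 and was called (limma adjusted p = 0.00555). In MUT it had 404 FPKM, against 205 FPKM in HET, so HET was the lowest of the 6 libraries.

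The neighbours Ifi27 and Ifi27l2a fell in KO. Both encode small hydrophobic proteins of the IFI27 family, they lie 1928 bases apart on chromosome 12 on opposite strands, and the tables give both rows the same coordinates. Ifi27 had 86.0 and 83.3 FPKM in KO, against 126 and 122 FPKM in WT, and fell by 0.55 on the log2 scale (standard error 0.093; limma adjusted p = 0.000531). In MUT it had 132 FPKM, against 94.3 FPKM in HET, so it was lower in KO than in WT and higher in MUT than in HET. Ifi27l2a had 2.70 and 3.92 FPKM in KO, against 24.9 and 17.6 FPKM in WT, and fell by 2.36 on the log2 scale (standard error 0.17; limma adjusted p = 1.36e-06). It had 34.8 FPKM in MUT, against 138 FPKM in HET. Its HET level was 6.48 times the WT mean and its MUT level 10.53 times the KO mean, the widest gaps between the backgrounds among the 38 genes.

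Xaf1, Ifi35 and Epsti1 were placed in the same role group here, beside the IFI27 family. Xaf1, whose product binds the apoptosis inhibitor XIAP, had 56.6 and 51.2 FPKM in KO, against 28.0 and 30.2 FPKM in WT, and 56.4 FPKM in MUT, against 20.2 FPKM in HET. Ifi35 had 78.7 and 70.0 FPKM in KO, against 35.6 and 34.7 FPKM in WT, and 73.6 FPKM in MUT, against 29.5 FPKM in HET. Both rose, by 0.87 and 1.06 on the log2 scale. Epsti1 was the lowest member in every library, with 0.646 and 1.11 FPKM in KO, against 0.931 and 0.843 FPKM in WT, and 1.15 FPKM in MUT, against 0.471 FPKM in HET. Its KO and WT values overlapped (log2 difference -0.019, SE 0.15, limma adjusted p = 0.925), with values close to the filter of 1 FPKM in all groups.

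Of the Schlafen genes and Samd9l, 3 of 4 rose in KO and Slfn5 was not called. SLFN2 is known for keeping T cells quiescent, and SAMD9L for slowing protein synthesis and restricting poxviruses. Slfn2 had 17.7 and 20.2 FPKM in KO, against 8.36 and 11.9 FPKM in WT, and 25.7 FPKM in MUT, against 8.55 FPKM in HET. Slfn8 had 4.89 and 4.18 FPKM in KO, against 1.99 and 2.91 FPKM in WT, and 10.2 FPKM in MUT, against 2.53 FPKM in HET. Slfn8 in MUT was 2.24 times the KO mean, although HET was 1.03 times the WT mean; the call in KO (log2 difference 0.69, limma adjusted p = 0.00233) was lost with no filter on low values (limma adjusted p = 0.0625), and Slfn8 has a close paralog that can share its reads. Slfn5 had 3.56 and 3.13 FPKM in KO, against 2.34 and 3.17 FPKM in WT, and 3.88 FPKM in MUT, against 2.99 FPKM in HET. Its KO and WT values overlapped (log2 difference 0.22, SE 0.14, limma adjusted p = 0.197); with quantile normalization the difference was 0.44 and was called (limma adjusted p = 0.0155). Samd9l had 29.5 and 27.3 FPKM in KO, against 12.6 and 17.2 FPKM in WT, and 30.8 FPKM in MUT, against 9.76 FPKM in HET.

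**Figure D2:**
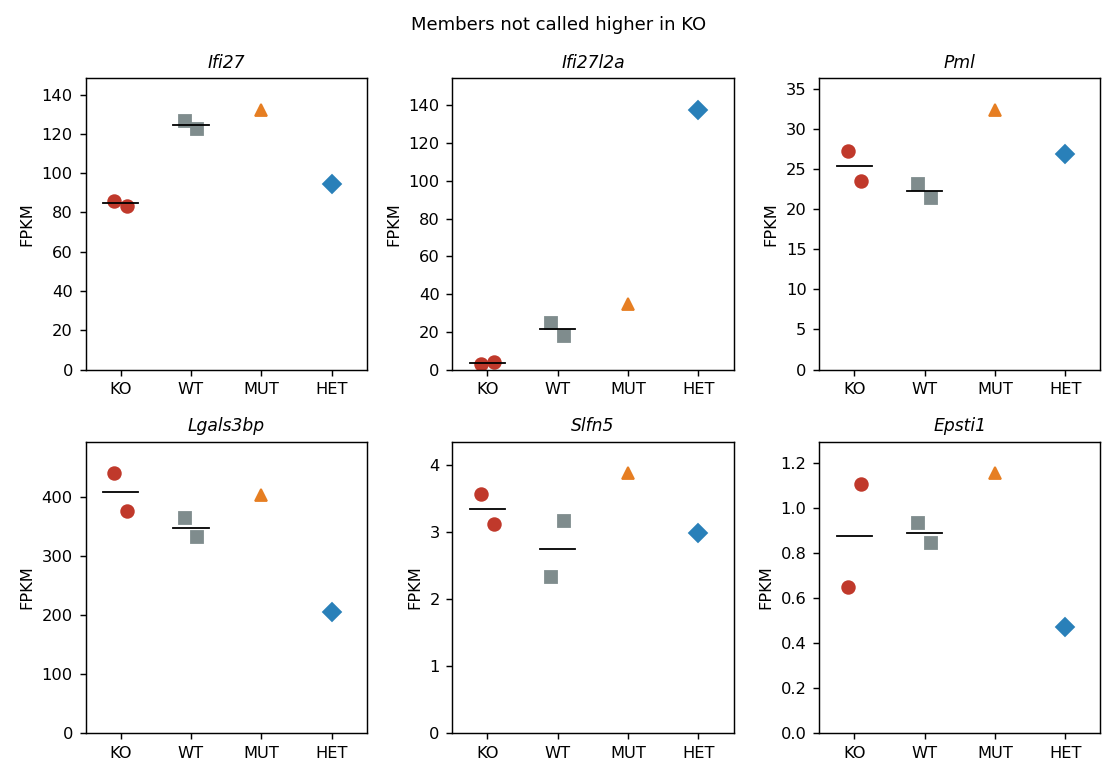
FPKM per library of the 6 members that were not called higher in KO; points are libraries and lines the means of the 2 KO and the 2 WT libraries. Ifi27 and Ifi27l2a fell in KO, and in Ifi27l2a HET stands at 138 FPKM against 24.9 and 17.6 FPKM in WT.

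In the Fl/E861A background the comparison of MUT with HET has 1 library on each side and no test. At 2-fold or more, 30 of the 38 genes were higher in MUT, against 4.93% of all genes, and 1 was lower (Ifi27l2a), against 8.77%. The same 2-fold difference between the replicate libraries was seen for 16 of 12266 genes in KO and 12 in WT. The median difference of MUT minus HET was 1.56 on the log2 scale over the 38 genes and 0.01 over all genes. Without a threshold, 37 of the 38 were higher in MUT than in HET, against 50.6% of all genes. Among the 32 genes that rose in KO, the ratio of FPKM ranged from 1.55 for Daxx to 12.9 for Rsad2. A fit of 4OHT against vehicle over all 6 libraries, with allele background as a term, called 33 of the 38 higher and 1 lower (Ifi27l2a), against 29.2% and 28.2% of all genes. In that fit Ifi27 was not called (log2 difference -0.21, limma adjusted p = 0.375), and Lgals3bp was called (log2 difference 0.48, limma adjusted p = 0.0289), a call that was lost without KO 1 (limma adjusted p = 0.0794), without WT 2 (0.0657), and without MUT (0.102) or HET (0.103), where the fit reduces to KO against WT, and also with no filter (0.0706), quantile normalization (0.0551) or the replicate block (0.0558).

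**Figure D3:**
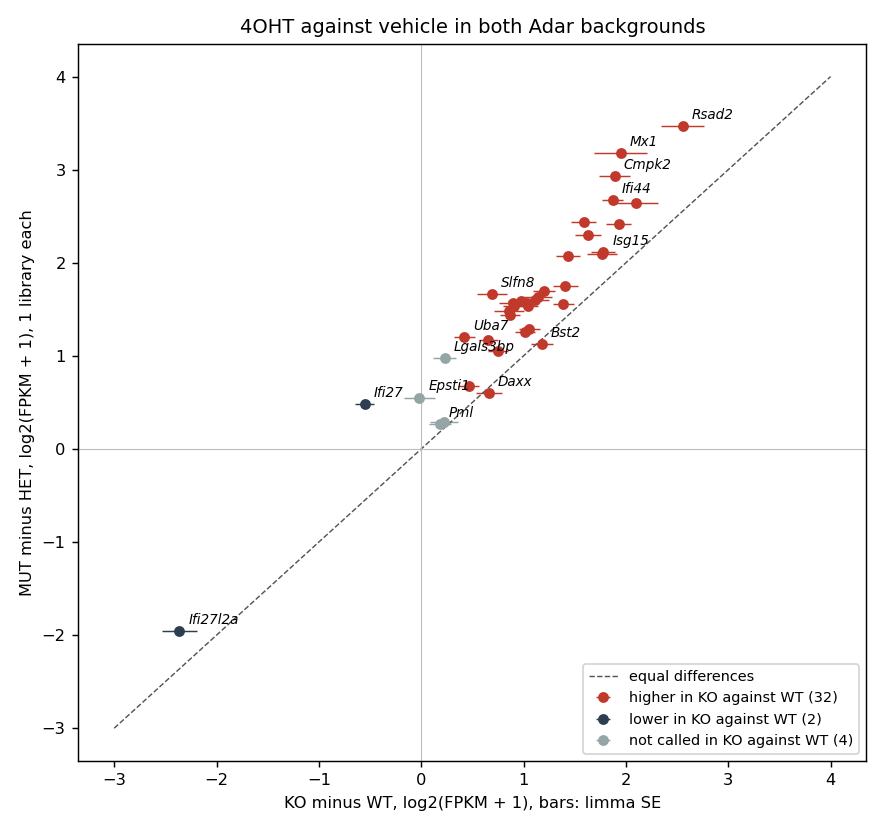
Difference of MUT minus HET (vertical axis) against that of KO minus WT (horizontal axis, bars show limma's SE) for each of the 38 genes, both on the log2(FPKM + 1) scale. In 36 of the 38 genes the point lies above the dashed line of equal differences; Bst2 and Daxx lie below it.

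In vehicle most of these genes were lower in HET than in WT, while after 4OHT MUT lay on both sides of KO. HET lay below both WT libraries in 31 of the 38 genes, above both in 4 (Pml, Sp100, Daxx and Ifi27l2a) and between them in 3 (Slfn2, Slfn5 and Slfn8); over all genes these shares were 39.1%, 41.8% and 19.1%. The ratio of HET over the WT mean was 0.739 at the median of the 38 genes and was lowest for Cmpk2 (0.403), Rsad2 (0.423) and Mx1 (0.446). MUT lay above both KO libraries in 19 genes, below both in 9 and between them in 10, against 34.6%, 44.7% and 20.7% of all genes. The ratio of MUT over the KO mean was 1.05 at the median. On the log2 scale the median of HET minus WT was -0.40 and that of MUT minus KO 0.07, against 0.01 and -0.04 over all genes. HET and MUT are 1 library each, so these counts carry no replicate error for them, and an effect of the E861A allele cannot be told apart from any other difference between the cultures. With median-of-ratios scaling or quantile normalization the count below both KO libraries was 5 in place of 9, while the 31 below both WT did not move.

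**Figure D4:**
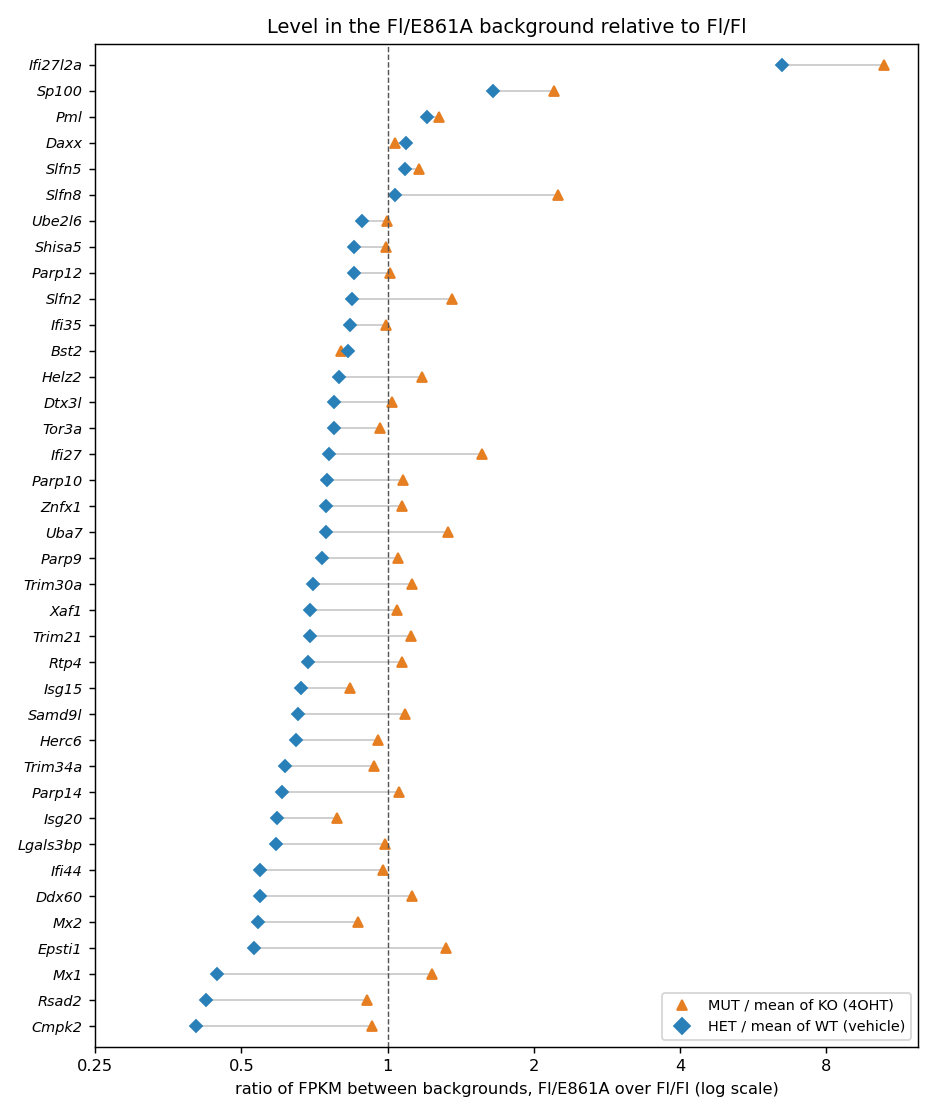
Ratio of FPKM in the Fl/E861A background over that in Fl/Fl for the 38 genes on a log axis, after 4OHT (triangles, MUT over the KO mean) and in vehicle (diamonds, HET over the WT mean), sorted by the HET over WT ratio. Most diamonds lie left of 1, with a median of 0.739, and the triangles scatter around 1, with a median of 1.05.

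The difference between both effects, MUT minus HET against KO minus WT, was above 0 in 36 of the 38 genes, against 46.3% of all genes. The limma test of this difference, with the spread taken from WT and KO, called 3 of the 38 (against 3.07% of all genes in this direction) and none in the other (0.946% of all genes). They were Ifi27 (log2 difference 1.03, SE 0.16, limma adjusted p = 0.00686), Ifi44 (0.81, SE 0.18, limma adjusted p = 0.0365) and Uba7 (0.78, SE 0.18, limma adjusted p = 0.0374). At an unadjusted p under 0.05 there were 21 of the 38, against 17.3% of all genes. The count of calls moved when a KO or WT library was left out, and so did the count over all genes. Each such fit leaves 1 library in that group, so these counts are not read as a result on these genes. With 1 library each, HET and MUT were assumed to vary like WT and KO. With no filter on low values 0 of the 38 were called.

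The KO over WT ratio of FPKM was set beside the level in vehicle. To keep the 2 measures apart, the vehicle level was taken from HET and the ratio from KO and WT. The 19 genes under 10 FPKM in HET had a median KO over WT ratio of 2.71, the 14 genes at 10 to 100 FPKM had 1.87, and the 5 genes at 100 FPKM or more had 1.38. That class includes Ifi27l2a, which was at 24.9 and 17.6 FPKM in WT; the 4 others had a median of 1.82, close to that of the middle class. With the level taken from WT and the ratio from MUT over HET, the medians were 3.78 for 12 genes, 3.01 for 21 genes and 1.97 for 5 genes. The classes overlapped widely: the abundant genes Isg15 and Bst2 had KO over WT ratios of 3.45 and 2.27, and the low genes Slfn5 and Epsti1 had 1.22 and 0.988. Across the 38 genes, Spearman's rho was -0.31 and Pearson's r -0.35 between the HET level and the log2 difference of KO minus WT, against -0.04 and -0.08 over all 12266 genes. Between the WT level and the difference of MUT minus HET they were -0.37 and -0.17, against -0.01 and -0.02. These are descriptions across genes, which are not independent replicates.

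**Figure D5:**
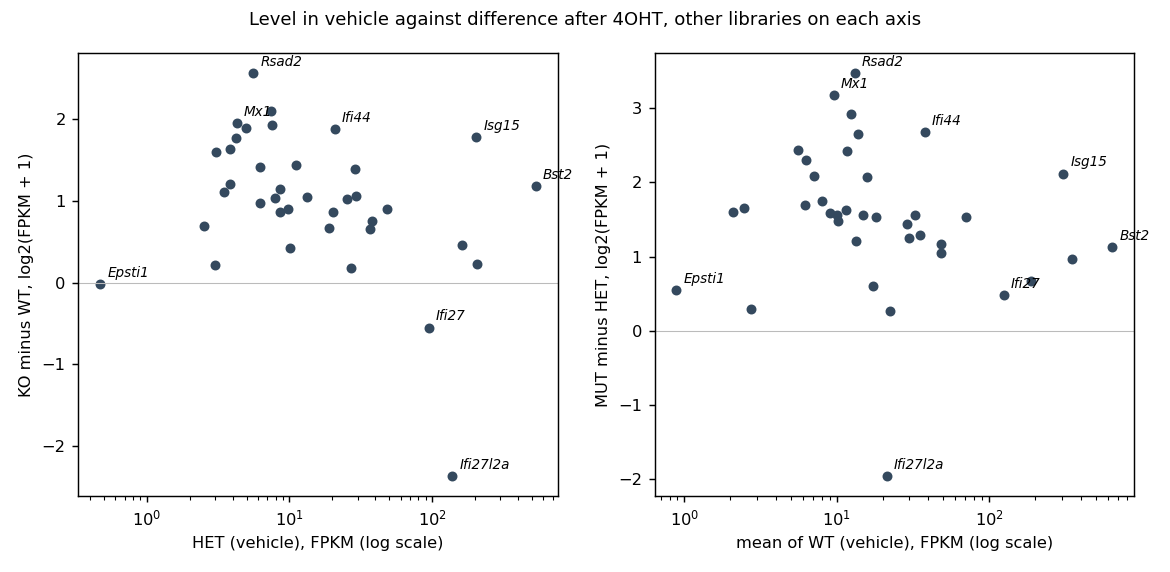
Level in vehicle (horizontal, FPKM on a log axis) against the log2 difference after 4OHT (vertical) for the 38 genes, with the level from HET and the difference from KO and WT on the left, and the level from WT and the difference from MUT and HET on the right. Members under 10 FPKM in HET reach the largest differences, up to 2.55 for Rsad2 on the left, and Ifi27l2a lies below 0 in both panels.

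Isg15 and Bst2 made up 53.2% and 58.8% of the summed FPKM of the 36 rows that name 1 gene in the KO libraries, against 46.2% and 43.6% in the WT libraries, and 49.5% in MUT, against 43.5% in HET. That sum was 4397 and 4557 FPKM in KO, against 2158 and 2060 FPKM in WT, and 4135 FPKM in MUT, against 1687 FPKM in HET.

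The WT libraries differed from each other in some of these genes. WT 2 lay above WT 1 in 26 of the 38 genes, against 55.9% of all genes, and by at least 0.5 on the log2 scale in Mx1 (1.02), Mx2 (0.84), Rsad2 (0.83) and Cmpk2 (0.50). KO 2 lay above KO 1 in 8 of the 38, against 55.3% of all genes, and in none did they differ by 0.5.

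Of the 14 genes of the interferon signalling list, 9 rose in KO, none fell and 5 were not called, against 29.5% of all genes called higher and 28.2% lower. Usp18 rose by 1.98 on the log2(FPKM + 1) scale. Irf7, a transcription factor that amplifies interferon production, had 182 and 157 FPKM in KO, against 74.8 and 73.4 FPKM in WT, and 187 FPKM in MUT, against 44.1 FPKM in HET. Like most effectors, Irf7 was lower in HET than in either WT library. Ifnb1, which encodes interferon beta, had 2.91 and 1.29 FPKM in KO, against 0.102 and 0.347 FPKM in WT, and 1.56 FPKM in MUT; it was listed at 0 in HET. Ifnb1 is counted among the 9, but it passed the filter only through the KO and MUT libraries, where it is high. Its call is therefore no support, and the count of 9 is to be read without it. Irf9 is listed only on a row shared with Rnf31, which also rose. The members not called were Ifnar1, Tyk2, Irf3, Socs1 and Socs3.

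The state of the cells moved with the groups as well. Adar itself stood at 34.2 and 31.3 FPKM in KO, against 19.6 and 19.5 FPKM in WT, and at 33.0 FPKM in MUT, against 17.0 FPKM in HET; a value over the whole gene does not show the loss of single exons, so it does not check the labels. Marker counts are to be read against the 28.2% of all genes that were called lower and the 29.5% called higher in KO. Of 9 pluripotency markers all fell in KO, and their summed level was 16.6 to 31.7 FPKM in KO, against 546 to 668 FPKM in WT, and 46.7 FPKM in MUT, against 684 FPKM in HET. Of 10 fibroblast markers 8 fell and none rose, and their sum was 2412 to 2418 FPKM in KO, against 5145 to 5519 FPKM in WT, and 3304 FPKM in MUT, against 5079 FPKM in HET. Of 10 leukocyte markers 8 had a row of their own; their sum was 7.81 to 9.35 FPKM in KO, against 23.4 to 27.4 FPKM in WT, and 15.1 FPKM in MUT, against 46.0 FPKM in HET, with 4 to 6 of the 8 under 1 FPKM in each library. Of these 8, 4 were tested, 1 rose and 1 fell in KO, and the highest single value was 36.7 FPKM, for Laptm5. Of 4 plasmacytoid dendritic markers, Siglech was listed at 0 in all 6 libraries and Ccr9 and Irf8 were under 1 FPKM, while Tcf4, at up to 36.2 FPKM, made up nearly all of a sum of 32.3 to 36.3 FPKM. All 5 lymphocyte markers were under 1 FPKM, and of 5 endothelial markers 1 rose and 3 fell, with sums of 5.37 to 5.40 FPKM in KO, against 5.90 to 6.03 FPKM in WT, and 4.93 FPKM in MUT, against 7.69 FPKM in HET. The part of these shifts in the effector genes was not tested, and in such bulk RNA more cells that express a gene and more RNA per cell cannot be told apart.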

How the data were processed

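Total RNA was depleted of ribosomal RNA before sequencing, per the labels' protocols. The authors deposited 1 table of FPKM per library, with decimal commas, per the file headers. Cufflinks 2.2.1, TopHat2 2.1.1 and Bowtie2 2.3.0 are named, per the submitters' processing notes, with the builds GRCm38 and mm10 and no roles. Annotation, strandedness and any scaling of libraries were not given in the sources used here. Values as deposited by the authors are FPKM on a linear scale, so counts were not analysed here and depth is unknown; from the steps of low values, with fragments assumed to be 200 bases long, it was estimated at 15.1 (MUT) to 21.8 (KO 1) M fragments, where M stands for mega. FPKM can shift for all genes when a few abundant ones change.

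Of 24879 rows per library, 1021 had no gene name and were left out. Where a name stood on several rows (314 names), the row of highest mean was used. Rows with FPKM of at least 1 in at least 2 of 6 libraries (12266) were put on the log2(FPKM + 1) scale and tested by limma 3.58.1, run in R 4.3.3 (empirical Bayes with trend, two-sided, Benjamini-Hochberg adjustment over all tested genes, threshold 0.05). The fits compared KO with WT, 4OHT with vehicle over 6 libraries, and the MUT minus HET effect with the KO minus WT effect. MUT against HET has 1 library each and no test. The fits were also run on simulated data with planted differences, where all libraries had the same spread for a gene. Such data cannot test the assumption that HET and MUT vary like WT and KO. Values in every library are given for the 3 largest rises of each of 8 role groups, for each member that fell or was not called, and for the ISG15 conjugation genes with Usp18. Members and lists were chosen with earlier results of these data known. Replicate numbers link only 2 pairs and the labels do not say that they mark a shared culture. Alternatives were a pseudocount of 0.1, no filter, median-of-ratios scaling, quantile normalization, a replicate block, summed rows and leaving out each library. Promoters came from RefSeq on GRCm38.p6, and gene positions from GENCODE M21. A result of the signalling list that is withheld is not reported here.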

Additional observations from a re-analysis of the deposited data

Results flagged for a closer look

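By a test of the difference itself, MUT minus HET exceeded KO minus WT in 3 of the 38 genes. The share called in this direction over all genes tested was 3.07%. MUT and HET had 1 library each. Ifi27 differed by 1.03 on the log2 scale (limma adjusted p = 0.00686): it was higher in MUT than in HET and lower in KO than in WT. Ifi44 differed by 0.81 (0.806; limma adjusted p = 0.0365), being higher in MUT than in HET and higher in KO than in WT. Uba7 differed by 0.78 (0.785; limma adjusted p = 0.0374), with the same directions as Ifi44. The Uba7 call was lost with no filter on low values (limma adjusted p = 0.172). It was also lost without WT 1 (log2 difference 0.79) and without WT 2 (0.78), fits that leave 1 WT library. The Ifi44 call was lost with no filter (limma adjusted p = 0.19) and without WT 2 (log2 difference 0.70). The Ifi27 call was lost with no filter (limma adjusted p = 0.121).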

How the results depend on the processing

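KO against WT, 31 to 33 of the 38 genes were called higher over all 10 alternatives, and 2 were called lower in each; leaving out 1 library also gave 31 to 33, and the replicate block gave 32. The call of 34 of the 38 did not change under any of them. For 4OHT against vehicle, leaving out 1 library gave 1 to 2 genes called lower, 2 without MUT or without HET, where the fit reduces to KO against WT. The count of genes whose MUT minus HET effect was called larger than KO minus WT moved most, from 3: it was 0 with no filter, 6 with median-of-ratios scaling, 7 with quantile normalization, 15 with the replicate block and 1 to 18 when 1 library was left out. Over all genes, the count called in this direction moved as well, from 376 of 12266. It was 450 with median-of-ratios scaling, 491 with quantile normalization and 784 with the replicate block. It also moved when 1 library was left out. Each such fit leaves 1 library in the KO or WT group, so the counts of 1 to 18 are not read as a result on these genes. With no filter, 0 of 17762 genes were called in that test, and 2814 had an unadjusted p under 0.05. MUT lay below both KO libraries in 5 genes under median-of-ratios scaling and in 5 under quantile normalization, against 9. The cause of these moves was not tested. Without HET or MUT the difference of effects could not be fitted.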
